A study of Caenorhabditis elegans with 12 samples.

Results

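The linker histone H1 genes of Caenorhabditis elegans are his-24 and hil-1 to hil-7, and their small RNAs were taken from the antisense rows of the count table that carry these 8 gene names, out of 19691 antisense rows of protein-coding genes. Small RNAs (sRNAs) were sequenced from whole young adult worms grown at 20 °C, in 3 inputs (total sRNAs of the lysate) and 3 immunoprecipitations (IPs) of the Argonaute WAGO-4 per genotype. WT worms were strain YY1325, in which the allele gg620 puts a 3xflag::gfp tag on wago-4 on chromosome II. 3×FG worms (SS142 in the labels) carry the same tagged allele and, on chromosome I, allele50 of glh-1 (F>A), allele16 of glh-4 (F>A) and allele49 of glh-2 (delFG). These 3 genes encode Vasa-like germ granule helicases, and the alleles alter or remove their phenylalanine-glycine repeats. Both genotypes thus hold the tag that was used for the IP, and the libraries were made from whole animals, in which fewer germ cells and less sRNA per germ cell cannot be told apart.

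H1 proteins bind nucleosomes where the DNA enters and leaves, and help to fold arrays of nucleosomes into compact chromatin. HIS-24, also named H1.1, is the C. elegans H1 best known from the germ line, where its loss releases transgene silencing. 22G-RNAs are made by RNA-dependent RNA polymerases on mRNA templates, so they are antisense to the genes they come from, and they are bound by Argonautes such as CSR-1 and WAGO-4. The comparisons asked how many antisense sRNAs each H1 gene had, how many of them were recovered with WAGO-4, and whether either differed between WT and 3×FG.

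The genes lie apart in the genome (WBcel235). his-24 (WBGene00001898) spans X:14490094-14491119 and hil-3 (WBGene00001854) X:8159169-8160084. hil-1 (WBGene00001852) lies at V:14949777-14952799, hil-4 (WBGene00001855) at V:4754313-4755453 and hil-6 (WBGene00001857) at V:2030507-2031554. hil-2 (WBGene00001853) lies at IV:6294240-6295217, hil-7 (WBGene00001858) at IV:6646312-6646972 and hil-5 (WBGene00001856) at I:5774585-5775610. hil-6 is on the minus strand and the others are on the plus strand, and the exons of each gene add up to between 573 and 955 bases. None of the 8 exon sets is overlapped by another protein-coding gene. The exons of his-24 are crossed on the other strand by the noncoding RNA genes M163.16 over 119 bases and M163.19 over 55 bases.

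The inputs held 2208475, 5200665 and 20006273 counts in WT and 78826261, 45860107 and 11890545 in 3×FG. WT inputs 1 and 2 are labelled batch A, and WT input 3 and all 3×FG inputs batch B. Part of the genotype comparison in input is thus also a comparison of batches. All IPs are labelled batch B, so WT pairs 1 and 2 set an IP of batch B against an input of batch A. The comparison of IP over input between genotypes is therefore also in part a comparison of batches. The labelled whole worm was matched by reads of muscle miR-1, neuronal lsy-6 and germline 21U-RNAs in all 6 inputs. Reads of the miR-35 to miR-41 family, which is made in oocytes and embryos, summed to between 15970 and 36773 RPM (reads of a feature per 1000000 reads of the library) in WT and between 11305 and 12926 RPM in 3×FG, with no overlap. Reads of let-7 also did not overlap, and ran the other way, from 2395 to 2480 RPM in WT and from 2740 to 3525 RPM in 3×FG. Those of lin-4 overlapped, at 344 to 385 RPM in WT and 295 to 566 RPM in 3×FG. Neuronal miRNAs were scarce, with lsy-6 at 0.90 to 5.43 RPM in WT and 1.18 to 1.98 RPM in 3×FG. miR-124, also neuronal, had 4.53, 3.65 and 0.50 RPM in WT inputs 1, 2 and 3, and 0.42 to 0.81 RPM in 3×FG. WT inputs 1 and 2 stood apart from WT input 3 in other classes, though not in let-7. 21U-RNAs had 21968, 15690 and 4744 RPM in WT inputs 1, 2 and 3, and 6670 to 9892 RPM in 3×FG. Reads of rRNA were 3.18%, 4.95% and 20.1% of counts in WT inputs 1, 2 and 3, and 15.2% to 19.3% in 3×FG. The part of these differences in the results that follow was not tested.

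Most antisense reads of H1 genes were counted on his-24 and hil-3. Together these had 1560 ± 114 RPM in the WT inputs and 937 ± 54.3 RPM in the 3×FG inputs (SD, n = 3 each). his-24 had 1246, 1245 and 1111 RPM in the WT inputs and 839, 881 and 788 RPM in the 3×FG inputs. All WT values were above all 3×FG values, and the means were 1201 ± 77.2 RPM and 836 ± 46.8 RPM (SD, n = 3 each). hil-3, which encodes H1.3, had 349, 408 and 322 RPM in WT and 100.0, 110 and 94.9 RPM in 3×FG. Its genotypes were far apart, with means of 360 ± 43.9 RPM and 102 ± 7.60 RPM (SD, n = 3 each).

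hil-4, which encodes H1.4, differed in the other direction. It had 34.9, 43.5 and 54.5 RPM in the WT inputs and 69.5, 81.4 and 109 RPM in the 3×FG inputs. The lowest 3×FG value lay above the highest WT value, with means of 44.3 ± 9.86 RPM and 86.6 ± 20.2 RPM (SD, n = 3 each). hil-2, which encodes H1.2, had 19.0, 19.0 and 16.6 RPM in the WT libraries and 15.0, 16.4 and 18.9 RPM in the 3×FG libraries. hil-5, which encodes H1.5, had 14.0, 16.0 and 16.6 RPM in WT and 16.6, 19.3 and 23.9 RPM in 3×FG. The genotypes overlapped for hil-2 and for hil-5.

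The remaining genes were close to the limit of detection. hil-6 had 1, 3 and 19 reads in the WT inputs and 56, 37 and 8 reads in the 3×FG inputs. hil-1, which encodes the divergent H1.X, had 2, 7 and 7 reads in WT and 23, 13 and 3 in 3×FG. hil-7, which encodes H1.Q, had 1, 1 and 3 reads in WT and 2, 4 and 1 in 3×FG. In WT input 1, the shallowest library, an absent gene could still be present at up to 1.36 RPM (3 counts, for counting error only), so hil-1, hil-6 and hil-7 were not measurable there.

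**Figure D1:**
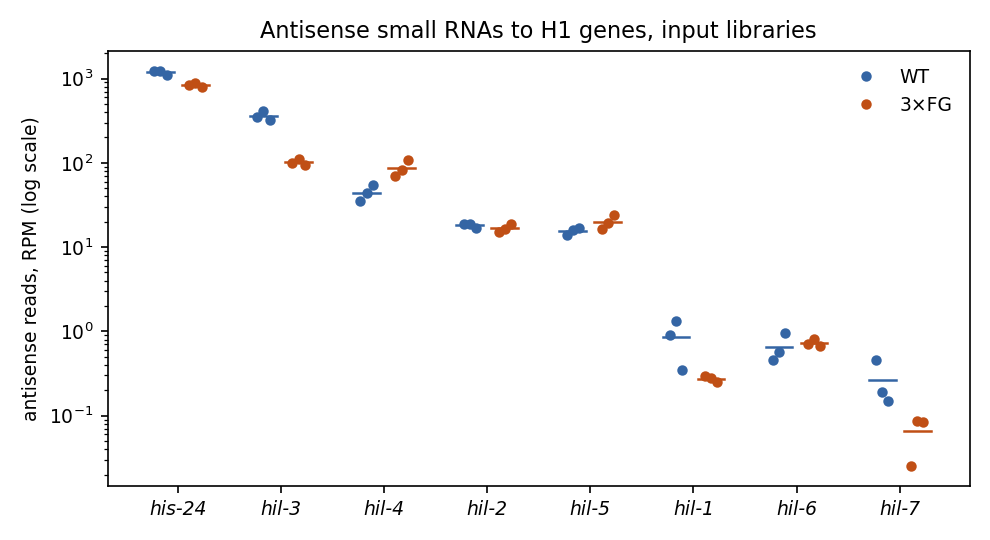
Antisense reads of the 8 H1 genes in RPM on a log scale, with 1 point per input library and a line at the mean of each genotype. his-24 and hil-3 were lower in all 3×FG inputs and hil-4 was higher, while hil-2, hil-5 and hil-6 overlapped. hil-1 and hil-7 were also lower in all 3×FG inputs, but on only 1 to 23 reads per library.

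Per kilobase of exon, the order in the WT inputs was his-24 with 1301 RPM per kb, hil-3 with 418, hil-4 with 46.4, hil-2 with 24.1 and hil-5 with 17.9, and each of these genes was separated from its neighbour over the 3 libraries. hil-1, hil-6 and hil-7 followed with 0.95, 0.82 and 0.46 RPM per kb and could not be ordered. The median over 19679 genes was 0.752 RPM per kb in WT and 0.712 in 3×FG. his-24 had 39 genes above it in each genotype. hil-3 had 120 genes above it in WT and 355 in 3×FG, whereas hil-4 moved from 739 genes above it to 438. In 3×FG hil-3 reached 110 to 128 RPM per kb and hil-4 reached 72.7 to 114 RPM per kb, so these neighbours overlapped there. hil-2 and hil-5 also overlapped in 3×FG, at 19.8 to 25.0 and 19.1 to 27.5 RPM per kb.

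As a result, the makeup of the reads antisense to H1 genes differed between genotypes. How far reads of M163.16 enter the level, rank and share of his-24 is not known. The 8 genes summed to 1640 ± 107 RPM in WT and 1062 ± 41.1 RPM in 3×FG (SD, n = 3 each). hil-3 gave 21.0% to 23.5% of this sum in WT and 9.16% to 9.90% in 3×FG. hil-4 gave 2.09% to 3.58% in WT and 6.67% to 10.5% in 3×FG. his-24 held the largest share in every input, with 71.8% to 74.8% in WT and 76.1% to 80.6% in 3×FG.

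**Figure D2:**
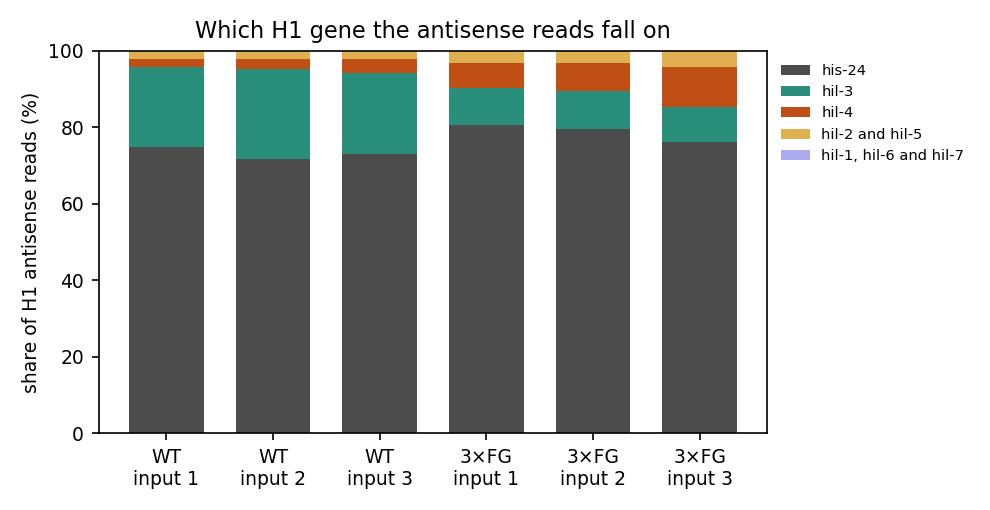
Share of the summed H1 antisense reads that fell on each gene, in percent, with 1 bar per input library. The hil-3 segment covers 21.0% to 23.5% in WT and 9.16% to 9.90% in 3×FG, and the hil-4 segment is wider in 3×FG.

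The reads ran almost entirely opposite to the mRNA for the abundant genes. Sense reads were 0.076% of his-24 reads in WT and 0.035% in 3×FG, and 0.16% and 0.25% of hil-3 reads. They were 6.69% and 3.45% for hil-2, 5.04% and 2.77% for hil-4 and 14.5% and 11.0% for hil-5. Among the sense rows of H1 genes, those of hil-2, hil-4 and hil-5 had enough reads to be tested and none passed, with log2 changes of -1.04, -0.06 and 0.03.

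Input counts of 22301 features were then compared between genotypes with the quasi-likelihood test of edgeR, at a Benjamini-Hochberg adjusted p under 0.01. Of the 8 genes, hil-1 and hil-7 had too few reads to enter. Among the 6 tested, 1 was lower in 3×FG and 0 were higher, where 2.88% of all features passed (2.04% lower and 0.839% higher) and, among antisense rows of protein-coding genes, 4.58%. The same gene passed with a log2 change beyond 1, which 2.87% of all features did. At an unadjusted p under 0.05, 3 of the 6 passed, as did 25.8% of all features. The median log2 change over the 6 was -0.27, and that over all features was 0.18. RPM values did not overlap between genotypes for his-24, hil-3 and hil-4 among the 6, and for 37.0% of all tested features.

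hil-3 was the gene that passed, with a log2 change of -2.04 (SE 0.19, adjusted p = 0.0021 by edgeR). SEs given for edgeR are approximate, and were derived from the change and its test statistic. Of all tested features, 4.55% had a lower log2 change. Against WT input 3, the batch B library, the log2 ratio of RPM for hil-3 lay between -1.76 and -1.55 in the 3 3×FG inputs, and with batch as a term the change was -1.77 (adjusted p = 4.9e-05 by edgeR). Leaving out any one of the 3×FG inputs moved the adjusted p of hil-3 above 0.01, to between 0.015 and 0.028 by edgeR, with log2 changes of -2.06 to -1.92.

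his-24 had a log2 change of -0.73 (SE 0.18, adjusted p = 0.048 by edgeR) and did not pass. It passed when antisense rows of protein-coding genes were fitted alone (-0.79, adjusted p = 0.0033 by edgeR), and with DESeq2 (-0.76, adjusted p = 0.00047). With batch as a term the change was -0.51 (adjusted p = 0.061 by edgeR). It also passed without WT input 3 (-0.78, adjusted p = 0.00065 by edgeR), where WT is left with batch A libraries and 3×FG with batch B.

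The noncoding RNA M163.16, opposite to part of his-24, had 711, 675 and 492 RPM in the WT inputs and 561, 574 and 504 RPM in the 3×FG inputs. These values overlapped between genotypes, and its log2 change was -0.41 (SE 0.22, adjusted p = 0.31 by edgeR). They came to 44.3% to 66.9% of the his-24 antisense value. Reads in the stretch they share run in the same direction for both features, and how such reads were assigned is not given in the sources used here, so they cannot be told apart. M163.19 had 22.1 to 26.9 RPM in WT and 12.6 to 14.3 RPM in 3×FG.

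hil-4 had a log2 change of 0.75 in input (SE 0.21, adjusted p = 0.070 by edgeR) and did not pass. With batch as a term the change of hil-4 was 0.55 (adjusted p = 0.21 by edgeR). Without WT input 3 it was 0.91 (adjusted p = 0.0041 by edgeR), where WT is left with batch A libraries and 3×FG with batch B. Within batch B the log2 ratio of RPM lay between 0.35 and 1.00. hil-2, hil-6 and hil-5 had log2 changes of -0.33, -0.20 and 0.14, and none of the 3 was near the threshold (lowest adjusted p = 0.36 by edgeR).

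WAGO-4 IPs could be followed for 3 of the 8 genes. A feature enters the target table of a genotype where all 3 of its IPs reach 5 RPM and exceed their input by a ratio of 2 or more. The tables held hil-2, hil-4 and hil-5 among 4850 features in WT and among 4185 in 3×FG. his-24 and hil-3, the H1 genes with most antisense sRNAs in input, were listed in neither table, nor were hil-1, hil-6 and hil-7. IP values of these 5 genes were not analysed here. The tables hold reads of the 22G class. For the 3 listed genes their input RPM came to 81.9% to 98.0% of the RPM made from the antisense input counts. Lengths and first bases of reads were not examined here.

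Among the 3 listed genes, hil-4 had the highest IP values. Its 22G-RNAs stood at 406, 410 and 377 RPM in the WT IPs and at 646, 605 and 676 RPM in the 3×FG IPs. All 3×FG IPs were above all WT IPs, a lack of overlap that 68.7% of features showed, with means of 398 ± 18.2 RPM and 642 ± 35.2 RPM (SD, n = 3 each). Over the 4080 features listed in both tables, its mean IP value was exceeded by 274 in WT and by 109 in 3×FG.

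hil-2 had 93.7, 101 and 97.9 RPM in the WT IPs and 101, 115 and 120 RPM in the 3×FG IPs. hil-5 had 88.5, 74.9 and 77.4 RPM in WT and 76.0, 104 and 93.7 RPM in 3×FG. The genotypes touched for hil-2 at about 101 RPM and overlapped for hil-5. The median feature had a mean IP value of 84.5 RPM in the WT table and 62.7 RPM in the 3×FG table.

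**Figure D3:**
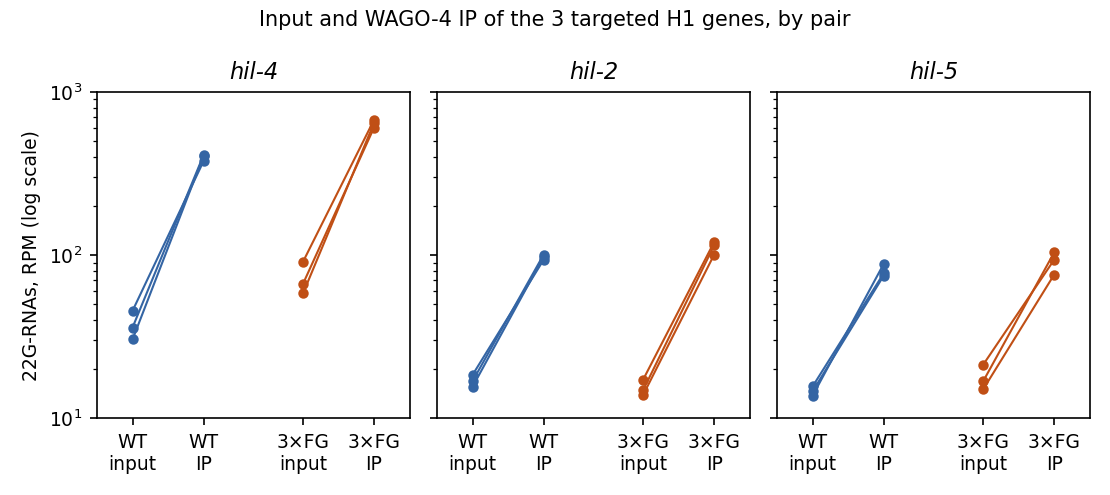
22G-RNAs of hil-4, hil-2 and hil-5 in RPM on a log scale, with a line joining the input and the WAGO-4 IP of each pair (WT in blue, 3×FG in orange). All lines rise from input to IP, and the hil-4 points of 3×FG lie above those of WT in both.

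IP values were compared over the 4080 features listed in both tables with limma on log2(RPM + 1). Of the 3 genes, 1 was higher in 3×FG and 0 were lower, where 49.0% of features passed (8.55% higher and 40.5% lower) and the median log2 change was -0.30. hil-4 rose by a log2 change of 0.69 (SE 0.08, adjusted p = 0.00010 by limma), and 97.5% of features had a lower value. It stayed within the log2 limit of 1 that 20.3% of features passed (0.613% higher and 19.7% lower). hil-2 and hil-5 had log2 changes of 0.19 (SE 0.10, adjusted p = 0.11 by limma) and 0.17 (SE 0.13, adjusted p = 0.27 by limma) and did not pass.

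These values depend on the scale. RPM leaves the median feature lower in 3×FG, and scaling the libraries by TMM (trimmed mean of M values) brings this median to -0.01. On that scale hil-4, hil-2 and hil-5 had log2 changes of 0.99, 0.49 and 0.47, and all 3 passed (adjusted p = 1.2e-05, 0.0013 and 0.0065 by limma), where 23.6% of features were higher and 28.7% lower. Features beyond a log2 change of 1 were 803 lower and 25 higher on the RPM scale, and 545 lower and 88 higher with TMM.

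The IP/input ratio sets the IP of a gene against the input of its pair, and in WT pairs 1 and 2 that input is of batch A. The WT pairs gave hil-4 ratios of 13.4, 11.4 and 8.28, and the 3×FG pairs 11.1, 9.08 and 7.42. hil-2 had WT ratios of 5.08, 5.96 and 6.27, and its 3×FG ratios were 7.25, 7.73 and 6.98. hil-5 had WT ratios of 6.42, 5.11 and 4.93, and its 3×FG ratios were 5.05, 6.17 and 4.41. The ratios of hil-4 and hil-5 overlapped between genotypes, and those of hil-2 were all higher in 3×FG. Over the features of both tables, ratios did not overlap for 58.5%, and for 1.15% all 3 3×FG pairs were above all WT pairs, as for hil-2.

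The change of this ratio between genotypes was fitted over the 12 libraries in limma, as the interaction of assay and genotype. The main fit held no term for the pairs of IP and input. None of the 3 genes passed, where 31.2% of features did (30.9% lower and 0.270% higher). At an unadjusted p under 0.05 the count was 0 of 3, and 59.7% over all features. The log2 changes of the ratio were 0.34 for hil-2 (SE 0.25, adjusted p = 0.24 by limma), -0.23 for hil-4 (SE 0.26, adjusted p = 0.44 by limma) and -0.07 for hil-5 (SE 0.26, adjusted p = 0.83 by limma). With the pair as a block none passed either (adjusted p = 0.27, 0.43 and 0.84 by limma, in the same order). The median over all features was -0.67, and the 3 genes lay above 97.6%, 82.8% and 89.7% of features in the same order.

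The signs of hil-4 and hil-5 depended on the input and the scale. With each WT IP set against WT input 3, the batch B library, the log2 changes were 0.22 for hil-2, 0.066 for hil-4 and 0.023 for hil-5, values with no test, and the median over all features was -0.53. With TMM the median over all features was -0.08, and 2.77% of features were higher and 5.74% lower. The changes with TMM were 0.97 for hil-2 (adjusted p = 0.0044 by limma), 0.39 for hil-4 (adjusted p = 0.031 by limma) and 0.55 for hil-5 (adjusted p = 0.028 by limma). Calls beyond a log2 change of 1 were 983 lower and 10 higher on the RPM scale, and 122 lower and 47 higher with TMM. Over the 4080 features of both tables, the mean ratio of hil-2 was exceeded by 3654 in WT and 987 in 3×FG, that of hil-5 by 3726 and 2295, and that of hil-4 by 1325 and 406. The mean ratios themselves were 5.77 and 7.32 for hil-2, 5.49 and 5.21 for hil-5 and 11.0 and 9.20 for hil-4.

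**Figure D4:**
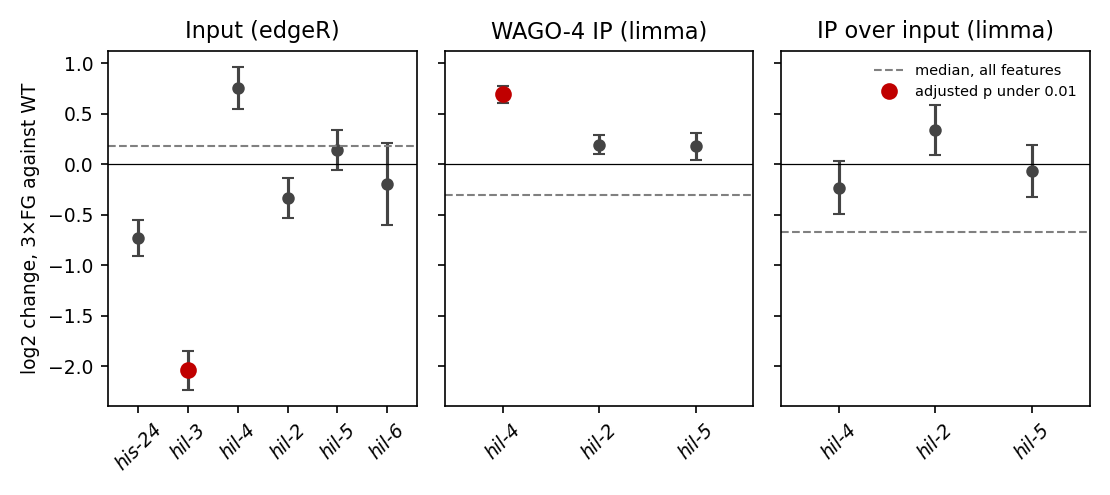
Log2 change in 3×FG against WT for each tested H1 gene in input, WAGO-4 IP and IP over input, with bars of 1 SE, a dashed line at the median of all features in that comparison and red points for an adjusted p under 0.01. The SE in input is approximate, derived from the edgeR test statistic. hil-3 in input and hil-4 in the IP passed, and the 3 genes with IP values lie above the dashed line in both IP panels.

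Across the 12 libraries, the log2 profile of hil-4 was closest to those of cit-1.2, B0001.7 and ari-2 (Pearson r = 0.999 each). hil-2 was closest to znfx-1, emb-27 and Y57E12AL.1 and hil-5 to pbs-2, abcf-2 and spt-5 (r = 0.997 each). The H1 genes correlated with each other at 0.96 to 0.99. The 12 libraries are 6 IPs and 6 inputs and all listed features are higher in the IPs, so these values are a description of profiles that share that step.

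The core histones form the nucleosome to which H1 binds. Of 71 core histone genes with counts, 56 were tested in input. Of these, 1 was lower and 0 were higher by edgeR, against 2.04% and 0.839% of all features, and 19 had an unadjusted p under 0.05, against 25.8%. By DESeq2 5 were lower and 2 higher, against 8.86% and 4.42% of all features. The one that fell by edgeR was his-38, an H4 gene (log2 change -1.94, adjusted p = 0.0050 by edgeR), and the median of the list was 0.38. In the IPs 18 core histone genes were tested, of which 12 were higher and 1 was lower, against 8.55% and 40.5% of all features, with a median log2 change of 0.67. With TMM 13 were higher and 1 lower, against 23.6% and 28.7%. The 2 higher genes with the lowest adjusted p were his-72, which encodes histone H3.3, with 1.02 (adjusted p = 2.2e-05 by limma), and the H3 gene his-45 with 1.64 (adjusted p = 5.8e-05 by limma), and the lower one was the H4 gene his-60 with -1.39 (adjusted p = 0.00011 by limma). In IP over input 0 of the 18 were higher and 1, his-60, was lower (-0.94, adjusted p = 0.0062 by limma). Over all features these shares were 0.270% and 30.9%. At an unadjusted p under 0.05 there were 10 of the 18, against 59.7%. With TMM 0 passed, against 2.77% of all features higher and 5.74% lower. Core histone genes of one type are near-identical copies, so reads may be split among them. Differences between this list and the H1 genes were not tested.

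The list of histone chaperones, HMG proteins and H1 partners held 24 genes. In input 2 were lower and 0 higher by edgeR, against 2.04% and 0.839% of all features. At an unadjusted p under 0.05 there were 10, against 25.8%. By DESeq2 2 were lower and 3 higher, against 8.86% and 4.42% of all features. hmg-11, which encodes an AT-hook HMG protein, had 921, 967 and 770 RPM in WT and 358, 355 and 357 RPM in 3×FG. Its genotypes did not overlap, as for 37.0% of all tested features, and the log2 change was -1.53 (adjusted p = 0.0050 by edgeR). The other was hpl-1, a heterochromatin protein 1 homologue, with -1.70 (adjusted p = 0.0083 by edgeR), which did not pass with library size alone (-1.50, adjusted p = 0.012 by edgeR). In the IPs 21 were tested, of which 4 were higher and 7 lower, against 8.55% and 40.5% of all features, and with TMM 7 and 5, against 23.6% and 28.7%. hmg-1.1, an HMG box protein gene, and unc-85, which encodes a homologue of the H3-H4 chaperone ASF1, had log2 changes of 1.07 and 0.57 in the IPs (adjusted p = 2.4e-05 and 0.00028 by limma). chaf-1, a subunit gene of the chromatin assembly factor CAF-1, and tlk-1, which encodes a Tousled-like kinase, had -1.40 and -1.15 (adjusted p = 1.4e-05 and 2.5e-05 by limma). In IP over input 8 of the 21 were lower and 0 higher, against 30.9% and 0.270% of all features, and tlk-1 and chaf-1 had -1.43 and -1.37 (adjusted p = 8.3e-05 and 0.00020 by limma). With TMM 1 was lower, against 5.74%, and chaf-1 no longer passed (-0.71, adjusted p = 0.031 by limma).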

How the data were processed

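sRNAs of 6 WAGO-4 IPs and 6 inputs were analysed, and groups came from the strain and title labels. The authors deposited raw counts per feature for the 6 inputs, and per genotype a target table of RPM values with 0.01 added and of the IP/input ratio made from them. The submitters' processing notes name cutadapt 1.15, STAR 2.6.0c and the builds ce10 and ce11, with no roles. Reads on no feature (4.58% to 6.14%) were left out of the tests but not of the RPM totals. Columns of other series left out numbered 0.

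Input counts were tested with edgeR 4.0.16 (quasi-likelihood, TMM, filterByExpr with a minimum count of 10), with DESeq2 1.42.0 as the alternative. The edgeR test gives no SE, so the absolute log2 change was divided by the square root of its F statistic. IP values and the interaction of assay and genotype were tested with limma 3.58.1 (trend) on log2(RPM + 1). RPM values hold fractions from reads that match several places and were not turned into counts. The threshold was an adjusted p of 0.01, with a log2 change beyond 1 where stated. On simulated data with 200 changed features per step, all 200 were recovered. These were well-covered features with larger changes than those of his-24 and hil-4, and no batch difference was simulated. Recovery of smaller changes, or with a batch difference, was therefore not tested. R 4.3.3, Python 3.11.15 and pandas 2.3.3 were used.

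The values named are those of all 8 genes and, per list, the 2 lowest adjusted p in each direction. Members and lists were chosen with earlier results of these data known. Replicate numbers are from the titles, the study describes the replicates as biological, and the numbers were not shown to pair the genotypes. Alternatives were the scaling, filter, pseudocount, tool, batch, the WT input used, replicate block and each replicate left out. Genome coordinates are from the Ensembl annotation of WBcel235. No sequence is printed.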

Additional observations from a re-analysis of the deposited data

How the results depend on the processing

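Features called in input (adjusted p under 0.01 and a log2 change beyond 1) numbered 641, of which 187 were higher. The count was 2435 with DESeq2, 2085 among antisense rows of protein-coding genes alone, 1511 with batch as a term (660 higher), 1668 in the batch B inputs alone (771 higher, chosen after seeing the data), 911 with no filter (433 higher) and 634 with library size alone (249 higher). Leaving out 1 replicate gave 9 to 7038 calls, with 9 without 3×FG input 3 and 7038 without WT input 3. The replicate block joined inputs of the same title number, which is not the number in their library names. With it edgeR called 0, with 4448 at an unadjusted p under 0.05, and hil-3 had -2.03 (adjusted p = 0.019 by edgeR). The numbers were not shown to pair the genotypes. Deviations of same-numbered inputs correlated at -0.33, -0.03 and -0.26, and of same-numbered IPs at -0.15, 0.31 and 0.20. Those of an IP and the input of its pair correlated at only 0.01 to 0.12, so this check cannot decide a pairing. Between inputs of different genotype the highest value was 0.40, for WT input 3 and 3×FG input 1, which share a number in their library names. In IP over input the block was instead the pair of IP and input. Neither block changed any other call of an H1 gene.

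Over the left-out replicates hil-3 lay between -2.10 and -1.85, his-24 between -0.78 and -0.59 and hil-4 in input between 0.64 and 0.96. his-24 passed with DESeq2 (-0.76) and among antisense rows alone (-0.79). hil-6 turned to 0.044 with no filter. With TMM scaling hil-2 and hil-5 passed in the IP (0.49 and 0.47), IP over input calls fell from 993 to 169, hil-2 passed there (0.97) and hil-4 and hil-5 turned to 0.39 and 0.55. With WT input 3 as the input of all WT IPs they turned to 0.066 and 0.023. Leaving out 1 replicate gave 547 to 1423 calls in IP over input and -0.19 to 0.048 for hil-5, which turned without 3×FG replicate 3 (0.040) and without WT replicate 1 (0.048). The 3×FG ratio of hil-2 was 6.93 with 1 RPM added to IP and input. The causes of these shifts were not tested. The other 173 values did not turn, cross the threshold or move beyond the limit set for them. The shallow WT input 1 limits hil-1, hil-6 and hil-7.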

Other observations

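his-24 and hil-3 are both on the X chromosome. Of 1146 antisense rows of X-linked genes tested in input, 51 were lower in 3×FG (4.45%) and 15 higher (1.31%). On the other chromosomes 2.61% to 3.37% were lower and 1.25% to 1.97% higher. Over all antisense rows of protein-coding genes 4.58% passed in either direction. The median log2 change was -0.05 on X, against 0.08 to 0.14 on the other chromosomes. X-linked genes in both target tables numbered 8.

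his-24 and hil-3 are among 408 genes with a mean of at least 100 RPM of antisense sRNAs over the 6 inputs that are listed in neither target table. Of these, 56 were lower in 3×FG and 26 higher, with a median log2 change of -0.42. A change of -2.04 or lower, that of hil-3, was seen in 24 of the 408. Of the 52 X-linked genes among them 12 were lower and 2 higher, with a median of -0.66. Among 95 genes listed in both tables that also had a mean of at least 100 RPM, 1 was lower and 3 higher, with a median of 0.55. Input levels above this limit were not matched between the groups. Listing itself depends on the input values, these groups were chosen after seeing the data, and the differences between them were not tested.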
